A study of Mus musculus with 6 samples.

Results

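The Slc25 genes encode the mitochondrial carrier family, membrane proteins that pass nucleotides, organic acids, amino acids, cofactors and iron between the cytosol and the mitochondrial matrix. The members described here are the rows of the deposited tables whose gene symbol is Slc25a followed by a number, with the pseudogene row left out. This gave 43 of 26835 genes. They were sorted by the substrate each is known to carry into 11 classes, from 9 carriers of amino acids and 9 of cofactors, vitamins and glutathione down to 1 each of phosphate and acylcarnitines. 7 genes had no settled substrate.

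The libraries came from macrophages of wild-type (WT) BALB/C mice, primary cells grown from marrow for 6 days with the growth factor M-CSF at 25 ng/ml. The donor animals were 5 to 8 weeks old. The cells then received 10 µg of extracellular vesicles shed by K7M2, a mouse osteosarcoma cell line, or PBS (phosphate-buffered saline) as the control, for 24 h. Each of the 2 groups held 3 libraries, titled as biological replicates, and the labels do not say whether marrow from several animals was pooled. The comparison asks how tumour vesicles change macrophage gene expression.

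Carriers of this family are encoded in the nucleus, made in the cytosol and imported into the inner mitochondrial membrane, where most of them exchange one solute for another. Slc25a17 and Slc25a46 are exceptions, since the first is a peroxisomal protein and the second sits in the outer membrane. In macrophages the family is best known for citrate export, which feeds lipid synthesis, and for the malate-aspartate shuttle. The shuttle carries the reducing equivalents of glycolysis into the matrix.

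The values are FPKM, fragments scaled to gene length and to the library total, and the spacing of low values implied 21435200 to 25776200 reads per library. The 8 macrophage markers were present in every library, from 4017 to 4897 FPKM in sum with PBS and from 12382 to 13855 FPKM with vesicles. At the threshold given below, 6 of them were called higher, 1 lower and 1 was not called. Over all genes tested, 18.4% were called higher and 35.6% lower. Mesenchymal markers (10 genes) summed to 212 to 251 FPKM with PBS and 274 to 289 FPKM with vesicles in replicates 1 and 3. In replicate 2 they summed to 511 and 744 FPKM, so that both libraries of replicate 2 stood apart. Of the 7 mesenchymal genes tested, 0 were called higher, 1 lower and 6 were not called. All 8 proliferation genes fell, and their sum went from 174 to 217 FPKM with PBS down to 41.6 to 54.7 FPKM with vesicles. Of the neutrophil markers, Ly6g and Mpo had means of at most 0.0356 FPKM, while S100a8, Mmp8 and Camp rose, and the list summed to 5.62 to 7.23 FPKM with PBS and 54.5 to 68.6 FPKM with vesicles. Of the 8 neutrophil genes with a row, 3 were called higher, 1 was not called and 4 were under the filter. Their median log2 fold change without a filter was -0.01. The 4 lymphocyte markers with a row summed to 9.49 to 11.8 FPKM and 0.618 to 2.12 FPKM, most of it Ighm. In bulk RNA a smaller number of cells of one kind and less RNA per cell cannot be told apart, and the part of these marker shifts in the values below was not tested.

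The carriers moved in both directions. Slc25a10, which exchanges malate and succinate for phosphate, was 4.02-fold higher with vesicles. Slc25a33, a pyrimidine nucleotide carrier, was 2.78-fold higher. Slc25a13, the aspartate-glutamate carrier known as citrin, was 3.86-fold lower, while its close relative Slc25a12, known as aralar, was 1.79-fold higher. These folds are ratios of mean FPKM over 3 libraries per group.

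The 250 bases before the RefSeq start site of these 4 genes are shown for the 2 highest positive and the lowest negative log2 fold change among tested carriers, and for Slc25a12, which moved opposite to Slc25a13 in 1 substrate class. The genes were chosen for printing after their values were seen. They lie at chr11:120491587-120491836 (Slc25a10, plus strand), chr4:149774268-149774517 (Slc25a33, minus strand), chr2:71367756-71368005 (Slc25a12, minus strand) and chr6:6217174-6217423 (Slc25a13, minus strand) of GRCm38.p6. Capitals mark matches on either strand to the motifs searched.
Slc25a10: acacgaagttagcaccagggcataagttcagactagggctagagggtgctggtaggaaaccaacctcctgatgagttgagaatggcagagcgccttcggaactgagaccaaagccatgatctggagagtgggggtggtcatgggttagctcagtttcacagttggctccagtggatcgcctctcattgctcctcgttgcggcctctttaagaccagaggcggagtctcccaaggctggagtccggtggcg
Slc25a33: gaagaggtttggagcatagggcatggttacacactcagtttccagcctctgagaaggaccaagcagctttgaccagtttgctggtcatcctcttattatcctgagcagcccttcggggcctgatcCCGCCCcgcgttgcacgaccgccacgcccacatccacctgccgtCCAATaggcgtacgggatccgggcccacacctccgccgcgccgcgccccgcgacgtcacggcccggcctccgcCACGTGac
Slc25a12: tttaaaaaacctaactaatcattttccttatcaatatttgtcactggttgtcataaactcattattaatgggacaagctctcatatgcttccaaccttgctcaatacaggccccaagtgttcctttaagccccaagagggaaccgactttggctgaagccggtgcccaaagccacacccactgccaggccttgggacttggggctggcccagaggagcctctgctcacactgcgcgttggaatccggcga
Slc25a13: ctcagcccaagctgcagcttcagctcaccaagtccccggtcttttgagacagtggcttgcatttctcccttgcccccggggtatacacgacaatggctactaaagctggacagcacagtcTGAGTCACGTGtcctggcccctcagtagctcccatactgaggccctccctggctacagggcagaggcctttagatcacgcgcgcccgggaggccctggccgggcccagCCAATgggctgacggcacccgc
The motifs were the E-box CACGTG, the GC box GGGCGG, the CCAAT box, AP-1 TGACTCA, the cAMP response element TGACGTCA and ETS CCGGAAG, and, by name, the NF-κB, NRF1 and interferon-stimulated response elements. Slc25a33 held an E-box, a GC box and a CCAAT box. Slc25a13 held a CCAAT box and an AP-1 match that overlaps an E-box. Slc25a10 and Slc25a12 held none of these letters. Of 32851 mouse windows of this length, 6.02% held the E-box, 32.7% the GC box, 33.8% the CCAAT box and 4.46% AP-1. The tables matched 33 of the 43 carriers with 42 windows, of which 19.0% held the E-box, 73.8% the GC box, 47.6% the CCAAT box and 2.38% AP-1. No carrier window held the NF-κB or NRF1 letters, which 0.140% and 0.782% of all windows held. A match describes letters and is not a measured binding site.

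Of the 43 carriers, 32 had at least 1 FPKM in at least 3 libraries and were tested in a fit over 13009 genes. Differences were called at an adjusted p under 0.05 (limma, Benjamini-Hochberg), and fold changes of the fit use log2(FPKM + 1) and so come out too small for low genes. Of the 32 tested carriers, 10 were called higher and 9 lower, and 13 were not called. Among all genes tested 54.0% were called, 18.4% higher and 35.6% lower. The median log2 fold change was -0.05 over the tested carriers, -0.08 over the 43 without a filter and -0.12 over all genes tested. Groups did not overlap for 21 of the 32 tested carriers, against 63.8% of all genes tested.

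6 carriers were called with a rise of at least 0.5 on the log2 scale and 2 with a fall of at least that size, where 9.52% and 17.9% of all genes were. The balance of higher and lower calls depended on the library scaling. Median-of-ratios scaling, which moved the median of all genes from -0.12 to 0.04, gave 13 carriers higher and 5 lower, beside 29.3% and 23.2% of all genes. Without both libraries of replicate 2, 10 were higher and 5 lower of 30 tested. Without both libraries of replicate 3, 6 were higher and 4 lower of 29, and leaving out both of replicate 1 gave 7 and 4 of 29. The shares of all genes called in these fits with fewer libraries were not computed, so the counts are descriptions only.

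**Figure D1:**
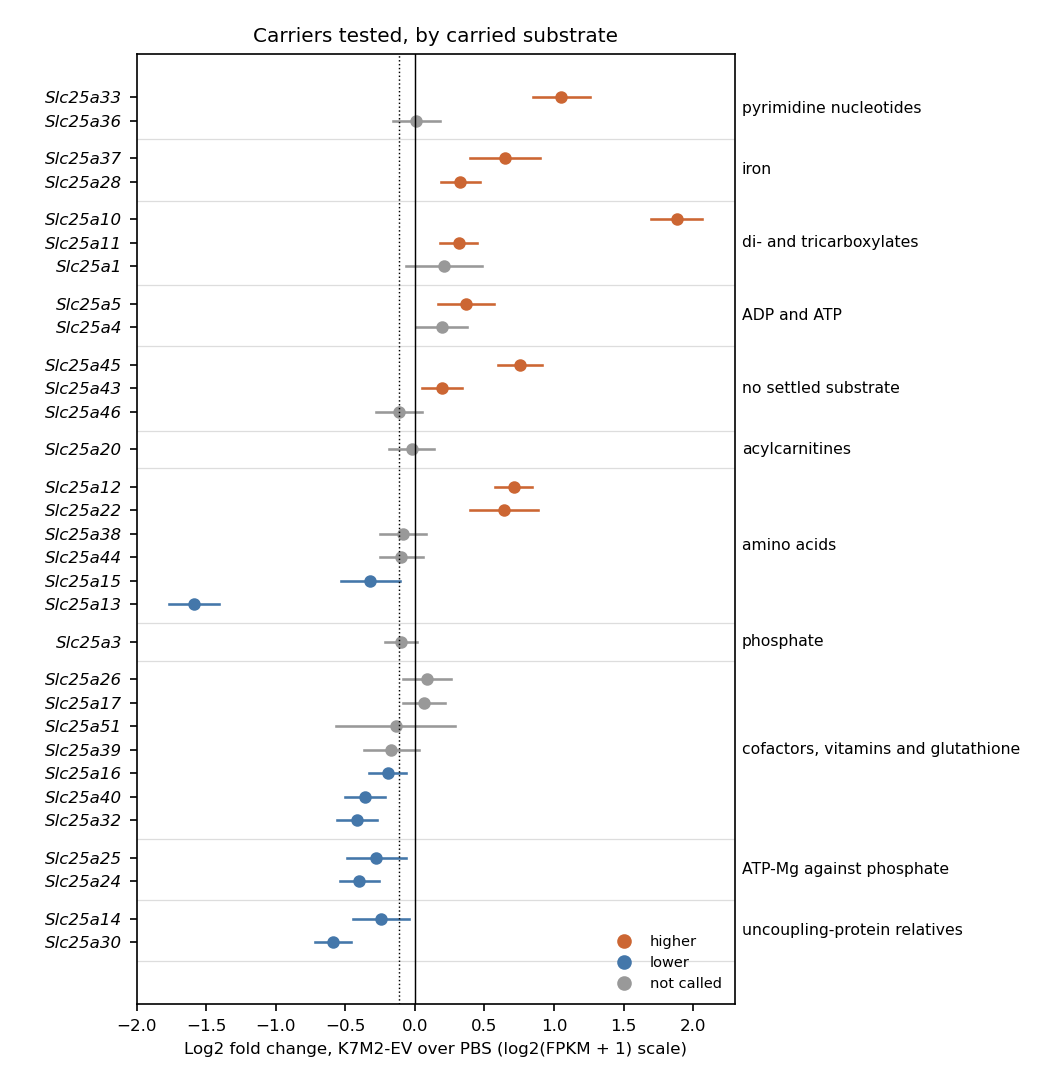
Log2 fold change of 31 tested carriers (x axis, K7M2-EV over PBS on the log2(FPKM + 1) scale) by substrate class, with points for the limma estimates over 3 libraries per group and bars for 95% intervals. Orange and blue points were called higher and lower, grey points were not called, and the dotted line is the median of all genes tested (-0.12). Slc25a10 (1.88) and Slc25a13 (-1.59) lie farthest from 0.

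Carriers of di- and tricarboxylates move the acids of the citric acid cycle. Of the 3 tested, 2 were higher, where 18.4% of all genes tested were. Classes of 2 or 3 genes are too small to set against such a share. Slc25a10 (chromosome 11, 120491840 to 120499187) measured 7.63, 7.89 and 8.61 FPKM in the PBS libraries and 34.7, 29.5 and 32.7 FPKM in the vesicle libraries. Its vesicle libraries all lay far above the highest PBS library, and its log2 fold change was 1.88 ± 0.08 (SE, adjusted p = 8.21e-06). With that, Slc25a10 went from rank 13 to rank 3 among the 43 carriers by mean FPKM, and its share of the summed carrier FPKM was 2.28% to 2.59% with PBS and 7.69% to 9.11% with vesicles. The antisense gene Gm11788 overlaps 6.60% of its exon bases and averaged 0.371 FPKM in PBS and 1.11 FPKM in vesicle libraries, far under Slc25a10 itself.

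Slc25a11, which exchanges 2-oxoglutarate for malate in the malate-aspartate shuttle, measured 20.7, 20.9 and 21.7 FPKM in the PBS libraries and 27.2, 25.0 and 27.2 FPKM in the vesicle libraries. The groups did not overlap, and it rose by 0.31 ± 0.05 (adjusted p = 0.00322), a call that dropped out once both replicate 3 libraries were removed (adjusted p = 0.0534). Median-of-ratios scaling gave 0.50. Slc25a1, the citrate carrier, measured 10.4, 9.99 and 12.4 FPKM in the PBS libraries and 12.4, 14.6 and 11.4 FPKM in the vesicle libraries. Its groups overlapped, and the difference of 0.21 had a 95% interval from -0.07 to 0.48 and was not called (adjusted p = 0.167). It was called after median-of-ratios scaling, at 0.39 (adjusted p = 0.0263).

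The ADP/ATP carriers, which bring ADP into the matrix and let ATP out, included the 2 members with the highest mean FPKM. Order between genes depends on the exon length used. Implied reads with PBS were 3088 to 3820 for Slc25a3, the phosphate carrier, and 2181 to 2845 for Slc25a5. With vesicles they were 3086 to 3249 and 3244 to 3486. Together Slc25a4 and Slc25a5 made up 32.2% to 35.8% of the summed carrier FPKM with PBS and 36.1% to 37.0% with vesicles. Slc25a5 measured 60.2, 74.0 and 67.0 FPKM in the PBS libraries and 88.2, 88.4 and 83.7 FPKM in the vesicle libraries. Every vesicle library lay above every PBS library, and the rise was 0.37 ± 0.08 (adjusted p = 0.00995). Removing both replicate 1 libraries (adjusted p = 0.0615) or both replicate 3 libraries (0.0844) ended that call, and median-of-ratios scaling gave 0.56.

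Slc25a4 measured 41.8, 49.7 and 44.8 FPKM in the PBS libraries and 51.6, 53.9 and 50.4 FPKM in the vesicle libraries. The groups did not overlap but came close, and the difference of 0.19 (95% interval 0.01 to 0.37) was not called (adjusted p = 0.0704). A replicate block gave a call (adjusted p = 0.0452), as did leaving out PBS replicate 2 (0.0205) or both replicate 2 libraries (0.0457) and median-of-ratios scaling (0.00256). Slc25a31, the form known from testis, measured 0.0641, 0.198 and 0.0915 FPKM in the PBS libraries and 0, 0 and 0.0195 FPKM in the vesicle libraries, too low to compare.

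Slc25a3, which imports the phosphate needed for ATP synthesis, measured 25.3, 26.8 and 26.7 FPKM in the PBS libraries and 24.0, 24.9 and 24.4 FPKM in the vesicle libraries. The groups did not overlap, yet the difference of -0.10 (95% interval -0.22 to 0.02) was not called (adjusted p = 0.131). Its direction turned after median-of-ratios scaling (0.09), while quantile normalization gave a call at -0.14 (adjusted p = 0.0433).

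The ATP-Mg carriers exchange ATP-Mg for phosphate under control of calcium and set the adenine nucleotide pool of the matrix. Both tested members were lower, where 35.6% of all genes tested were. Slc25a24 measured 26.0, 27.8 and 26.6 FPKM in the PBS libraries and 19.6, 21.3 and 19.4 FPKM in the vesicle libraries. Its libraries did not overlap, and it fell by 0.40 on the log2 scale (SE 0.06, adjusted p = 0.00148), with a fall of 0.21 after median-of-ratios scaling. In the order of means Slc25a24 went from rank 3 with PBS to rank 6.

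Slc25a25 measured 2.89, 2.53 and 3.07 FPKM in the PBS libraries and 2.40, 1.91 and 2.17 FPKM in the vesicle libraries. It was called at -0.28 (adjusted p = 0.0356), and the call was lost under 9 of 14 alternatives, among them median-of-ratios scaling (-0.14, adjusted p = 0.283) and no filter (0.0617). It was also lost without PBS replicate 1 (0.091) or 3 (0.113) and without K7M2-EV replicate 2 (0.095) or 3 (0.0883). Naif1, on the opposite strand, overlaps 4.82% of its exon bases and averaged 2.88 FPKM in PBS and 2.13 FPKM in vesicle libraries. Reads from both genes cannot be told apart where they overlap.

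Slc25a23 fell under the filter, with 1.00, 0.934 and 1.11 FPKM in the PBS libraries and 0.0788, 0.134 and 0.129 FPKM in the vesicle libraries. The vesicle libraries lay far below the PBS libraries, with a mean 8.89-fold lower and about 10.0 to 16.5 implied reads in each. In a fit without the filter it was called at -0.85 (adjusted p = 0.00025).

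**Figure D2:**
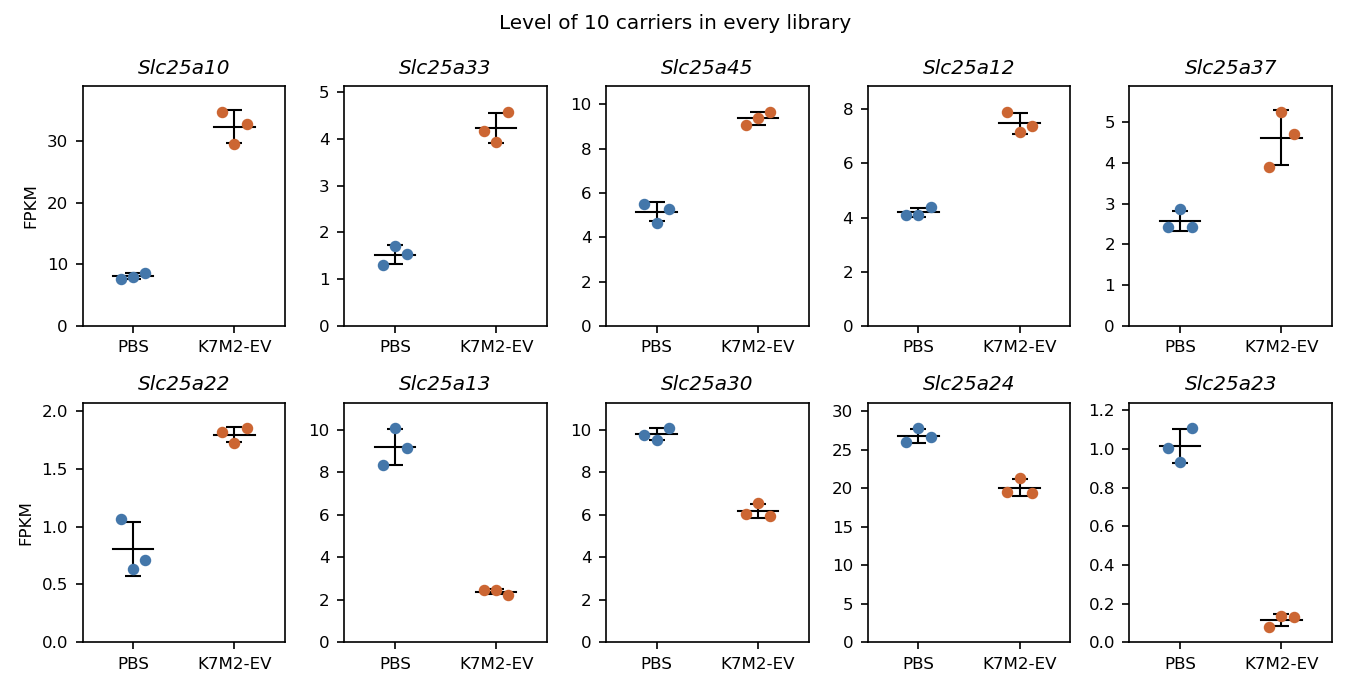
FPKM (y axis, from 0) of 10 carriers in the 3 PBS and 3 K7M2-EV libraries. Points are libraries, long lines are means and whiskers are SD. The 10 are the carriers called with a change of at least 0.5, with Slc25a24 and Slc25a23 of the ATP-Mg class. Their PBS and vesicle libraries do not overlap, which the choice by call largely sets. Groups did not overlap for 21 of the 32 tested carriers and 63.8% of all genes tested. Slc25a23 drops from about 1 FPKM to at most 0.134 FPKM.

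The 9 amino acid carriers split within the class, and the clearest split was between the aspartate-glutamate carriers. These calcium-regulated proteins export aspartate from the matrix as a step of the malate-aspartate shuttle. Slc25a13 (chromosome 6, 6041218 to 6217173) measured 8.35, 10.1 and 9.14 FPKM in the PBS libraries and 2.45, 2.44 and 2.25 FPKM in the vesicle libraries. It fell by 1.59 on the log2 scale (SE 0.07, adjusted p = 1.48e-05), from rank 10 to rank 25 among the carriers. Slc25a12 (chromosome 2, 71271063 to 71367749) measured 4.08, 4.11 and 4.37 FPKM in the PBS libraries and 7.91, 7.16 and 7.38 FPKM in the vesicle libraries. Neither gene's groups overlapped, and Slc25a12 rose by 0.71 ± 0.06 (adjusted p = 0.000117). No annotated gene overlaps the exons of either.

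Slc25a22, a glutamate carrier, measured 1.07, 0.630 and 0.715 FPKM in the PBS libraries and 1.81, 1.72 and 1.85 FPKM in the vesicle libraries. All vesicle libraries lay above the PBS libraries, and it rose by 0.64 ± 0.10 (adjusted p = 0.00224). It passed the filter mainly through its vesicle libraries, since 1 PBS library reached 1 FPKM, and a pseudocount of 0.1 gave 1.10. Slc25a15, which exchanges ornithine for citrulline in the urea cycle, had means of 1.51 ± 0.206 FPKM with PBS and 1.01 ± 0.125 FPKM with vesicles (SD, n = 3 per group). Slc25a15 passed the filter mainly through its PBS libraries, since 1 vesicle library reached 1 FPKM. Its call at -0.32 (adjusted p = 0.0212 by limma) was lost under 8 of 13 alternatives, among them median-of-ratios scaling (-0.21, adjusted p = 0.0762) and quantile normalization (-0.10, 0.355). The call was also lost without PBS replicate 2 (0.0676) or 3 (0.0667) and without K7M2-EV replicate 1 (0.0669) or 2 (0.0544).

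Slc25a38, a glycine carrier needed for haem synthesis, and Slc25a44, a carrier of branched-chain amino acids, were not called. Their differences were -0.09 (95% interval -0.25 to 0.08) and -0.10 (-0.25 to 0.06). Slc25a2, Slc25a18 and Slc25a29 stayed under 1 FPKM in every library.

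The carriers of pyrimidine nucleotides supply the matrix with building blocks for mitochondrial RNA and DNA. Slc25a33 (chromosome 4, 149744036 to 149774277) measured 1.30, 1.71 and 1.55 FPKM in the PBS libraries and 4.16, 3.94 and 4.58 FPKM in the vesicle libraries. The groups lay well apart, and it rose by 1.05 ± 0.09 (adjusted p = 0.000127). The antisense gene Gm13068 overlaps 14.9% of its exon bases and was listed at 0 in 5 of the 6 libraries. Slc25a36 had means of 5.38 ± 0.320 and 5.43 ± 0.421 FPKM (SD, n = 3 per group) and was not called, with a difference of 0.01 (95% interval -0.16 to 0.18). In the order of means Slc25a33 went from rank 27 to rank 19.

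Both mitoferrins, which bring iron into the matrix for haem and iron-sulfur clusters, were higher, where 18.4% of all genes tested were. Slc25a37, mitoferrin-1, is known from red cell precursors, and measured 2.43, 2.87 and 2.44 FPKM in the PBS libraries and 3.90, 5.25 and 4.70 FPKM in the vesicle libraries. It rose by 0.65 ± 0.10 (adjusted p = 0.00246), a call that did not survive removal of both replicate 3 libraries (adjusted p = 0.0517). Slc25a28, the widely expressed mitoferrin-2, measured 8.92, 8.95 and 8.00 FPKM in the PBS libraries and 11.2, 11.3 and 10.7 FPKM in the vesicle libraries. It rose by 0.33 ± 0.06 (adjusted p = 0.00359), with 0.50 after median-of-ratios scaling. Neither gene's groups overlapped. The 7 erythroid markers with a row, globins and Alas2 among them, summed to 0.191 to 0.976 FPKM with PBS and 0.0705 to 0.850 FPKM with vesicles.

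Of the 9 carriers of cofactors, vitamins and glutathione, 8 were tested, 3 were called lower and 0 higher, where 35.6% of all genes tested were called lower and 18.4% higher. Slc25a32, which carries folate or FAD, had means of 3.56 ± 0.149 and 2.42 ± 0.108 FPKM (SD, n = 3 per group). It fell by 0.42 (limma, adjusted p = 0.00135), and by 0.27 after median-of-ratios scaling and 0.25 after quantile normalization. Slc25a40, a glutathione carrier, had means of 1.13 ± 0.0214 and 0.660 ± 0.0466 FPKM and fell by 0.36 (limma, adjusted p = 0.00278). It passed the filter through its PBS libraries alone. The call was lost with quantile normalization (-0.08, adjusted p = 0.313), and a pseudocount of 0.1 gave -0.69.

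Slc25a16, linked to coenzyme A, was called at -0.20 (adjusted p = 0.0238). That call was lost under 9 of 14 alternatives, among them median-of-ratios scaling (-0.05, adjusted p = 0.565) and quantile normalization (-0.04, 0.632). It was also lost without PBS replicate 1 (0.0634) or 3 (0.0678) and without K7M2-EV replicate 1 (0.0744) or 2 (0.0685). Slc25a39, the other glutathione carrier, had means of 8.76 ± 0.708 and 7.68 ± 0.679 FPKM and was not called, at -0.17 (95% interval -0.37 to 0.03). The peroxisomal carrier Slc25a17, at 16.7 ± 0.918 and 17.6 ± 0.869 FPKM, was not called in the main fit and was called at 0.25 after median-of-ratios scaling (adjusted p = 0.00869). The NAD carrier Slc25a51 varied widely within groups, at 6.13 ± 0.939 and 5.54 ± 1.36 FPKM (SD, n = 3 per group), and its 95% interval ran from -0.57 to 0.29. Slc25a26, for S-adenosylmethionine, was not called, at 0.09. Quantile normalization gave it a call at 0.29 (adjusted p = 0.0229). Slc25a42, a coenzyme A carrier, was under the filter at 0.633 ± 0.0460 and 0.438 ± 0.0156 FPKM.

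Slc25a20, the carnitine-acylcarnitine carrier that admits long-chain fatty acids for oxidation, had means of 3.17 ± 0.0823 FPKM (PBS) and 3.11 ± 0.261 FPKM (vesicles) (SD, n = 3 per group). The difference was -0.02 with a 95% interval from -0.18 to 0.14.

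The relatives of the uncoupling proteins were represented by 2 tested carriers. Slc25a30 measured 9.77, 9.53 and 10.1 FPKM in the PBS libraries and 6.06, 6.54 and 5.96 FPKM in the vesicle libraries. The libraries did not overlap, and it fell by 0.59 on the log2 scale (SE 0.05, adjusted p = 0.0002). Slc25a14 was just past the threshold at -0.24 (adjusted p = 0.0491), and passed the filter through its PBS libraries alone, since no vesicle library reached 1 FPKM. It was not called with a replicate block (0.0700), with no filter (0.0784), without K7M2-EV replicate 1 (0.110), 2 (0.110) or 3 (0.0834), or with quantile normalization, which turned its direction (0.01). A pseudocount of 0.1 gave -0.44 for it. Slc25a27, under the filter, measured 0.474, 0.331 and 0.290 FPKM in the PBS libraries and 0.124, 0.0839 and 0.0155 FPKM in the vesicle libraries.

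Among the genes with no settled substrate, Slc25a45 measured 5.50, 4.67 and 5.30 FPKM in the PBS libraries and 9.08, 9.40 and 9.67 FPKM in the vesicle libraries. Its groups lay well apart, and it rose by 0.76 ± 0.07 (adjusted p = 0.000174). Slc25a43 was called at 0.19 (adjusted p = 0.033), and at 0.36 after median-of-ratios scaling. The call was lost with no filter (0.0553), without any 1 of the PBS libraries (0.0723 to 0.0806), without K7M2-EV replicate 1 (0.0922) and without both libraries of any replicate number (0.0871 to 0.150). The outer membrane protein Slc25a46 was not called, at -0.11 (95% interval -0.28 to 0.05). Slc25a34, Slc25a35, Slc25a47 and Slc25a53 were under 1 FPKM in every library.

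**Figure D3:**
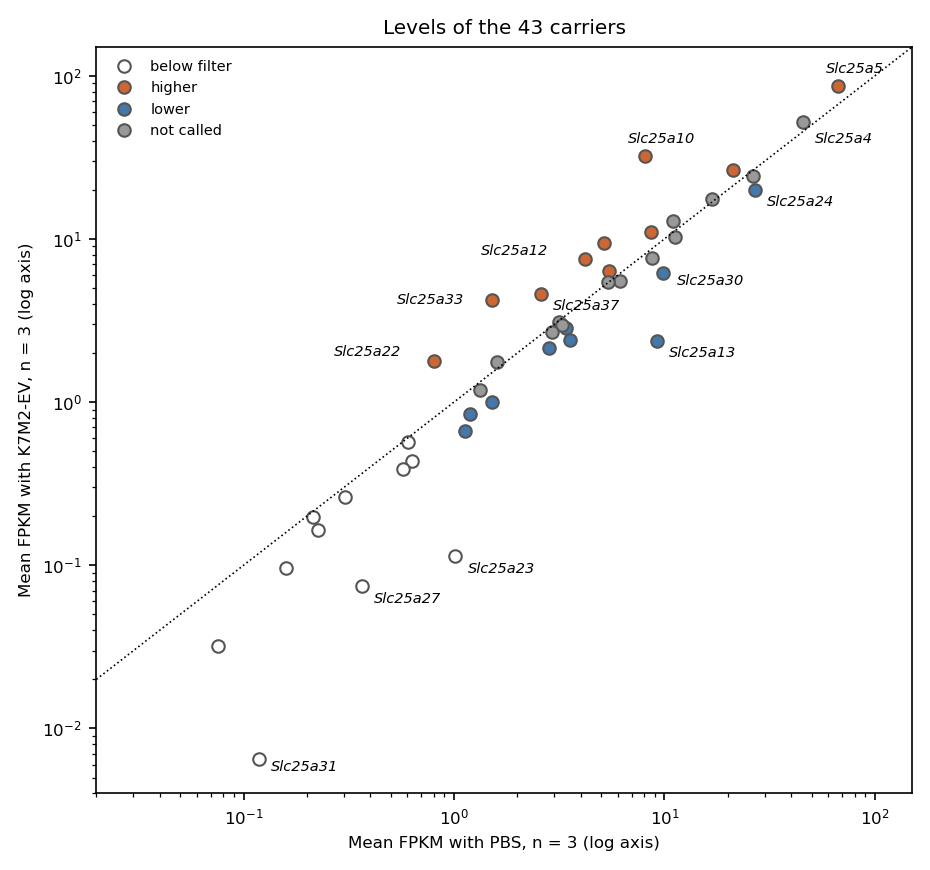
Mean FPKM over 3 libraries with PBS (x axis) and with K7M2-EV (y axis), both on log axes, for the 43 carriers. Orange, blue and grey points were called higher, lower and not called, open points were under the filter, and the dotted line marks equal means. Slc25a10 lies farthest above the line among tested carriers and Slc25a13 farthest below.

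Levels of the family spanned more than 3 orders of magnitude per unit length. By mean FPKM over the 6 libraries, Slc25a5 and Slc25a4 led, at 76.9 and 48.7 FPKM. Slc25a3, Slc25a11, Slc25a24 and Slc25a10 followed at 25.4, 23.8, 23.4 and 20.2 FPKM. With PBS, Slc25a24 (26.8 ± 0.896 FPKM) and Slc25a3 (26.3 ± 0.856 FPKM) did not differ beyond their spread (SD, n = 3). With vesicles the third place went to Slc25a10, at 32.3 ± 2.61 FPKM, followed by Slc25a11 at 26.5 ± 1.26 FPKM. These 6 carriers made up 57.4% to 60.0% of the summed carrier FPKM with PBS and 63.3% to 64.3% with vesicles. The sum over the 43 carriers went from 316.5 to 345.5 FPKM with PBS to 371.2 to 384.2 FPKM with vesicles, without overlap between groups.

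A common scale factor of a library cancels in the ratio of 2 carriers measured in it. Of 10 ratios listed, 8 had both members expressed, and they were tested by an exact two-sided permutation test over the 6 libraries. With 3 libraries against 3 that test cannot go below 0.10, so no ratio could pass 0.05. The ratio of Slc25a12 to Slc25a13 was 0.489, 0.408 and 0.478 with PBS and 3.23, 2.93 and 3.28 with vesicles. By FPKM, Slc25a13 was thus the higher of the pair with PBS and Slc25a12 in 3 of 3 vesicle libraries. The order with PBS depends on the exon lengths used, which in GENCODE are 7342 and 3798 bases for Slc25a12 and Slc25a13. Implied reads with PBS were 647 to 828 for Slc25a12 and 698 to 895 for Slc25a13. On the log2 scale the ratio of Slc25a12 to Slc25a13 rose by 2.72 (exact permutation p = 0.1, Benjamini-Hochberg adjusted 0.114).

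The ratio of Slc25a10 to Slc25a11 was 0.368, 0.377 and 0.398 with PBS and 1.28, 1.18 and 1.20 with vesicles, a log2 difference of 1.67. Slc25a33 to Slc25a36 went from 0.227 to 0.331 with PBS to 0.709 to 0.923 with vesicles, a difference of 1.41. For mitoferrins the ratio of Slc25a37 to Slc25a28 was higher by 0.46, at 0.272 to 0.320 with PBS and 0.349 to 0.467 with vesicles. For Slc25a39 over Slc25a40 the difference was 0.51, for Slc25a4 over Slc25a5 it was -0.18, and for Slc25a23 over Slc25a24 it was -1.97. These 6 ratios did not overlap between groups and had the same exact permutation p of 0.1. Among single genes tested 63.8% did not overlap, and ratios of other gene pairs were not computed for comparison. With vesicles the level of Slc25a23 is about the size of the pseudocount of 0.1, so its difference of -1.97 depends on that setting. A library scale factor does not fully cancel there. Without a pseudocount the ratio of Slc25a23 to Slc25a24 was 0.0336 to 0.0417 with PBS and 0.00403 to 0.00668 with vesicles. Slc25a25 over Slc25a24 overlapped between groups and differed by 0.04 (exact permutation p = 0.8).

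**Figure D4:**
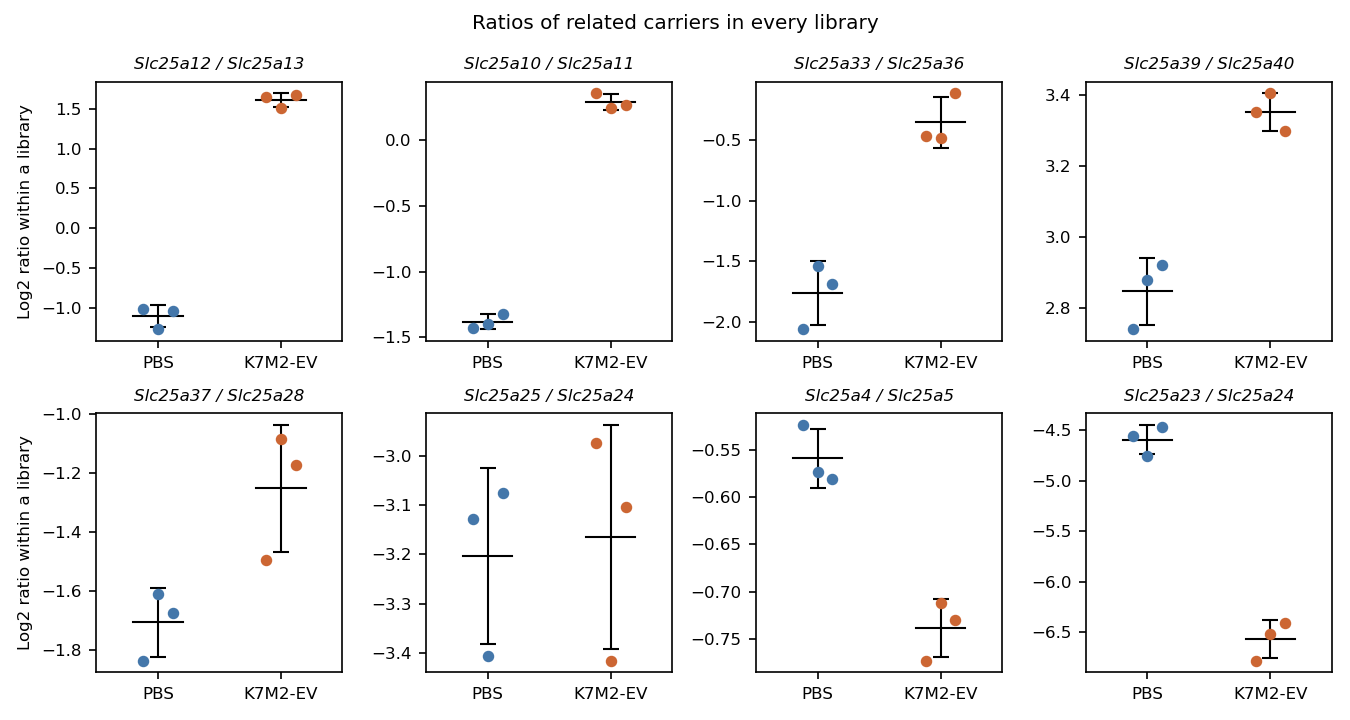
Log2 ratio of 8 pairs of related carriers within each library (y axis, pseudocount 0.1) for 3 PBS and 3 K7M2-EV libraries, with means (long lines) and SD (whiskers). The Slc25a12 to Slc25a13 ratio goes from -1.11 to 1.61 on average, and 7 of the 8 ratios do not overlap between groups. Of all single genes tested 63.8% did not overlap, and no share was computed for ratios of other gene pairs. Each panel has its own y range.

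Lists of genes that work beside the carriers also moved both ways. Over 7 lists, 16 members were called higher and 17 lower of 70 tested, where 18.4% of all genes tested were higher and 35.6% lower. The counts of single lists below are descriptions to be read against those shares. After median-of-ratios scaling 26 were higher and 11 lower, beside 29.3% and 23.2% of all genes. Genes named here other than Acod1 and Alas1 were chosen after their values were seen. Enzymes of citrate and malate metabolism split into 5 higher, 5 lower and 4 not called of 14, with a median of 0.08. Without both libraries of replicate 1, or both of replicate 3, 13 were tested, with 2 higher and 4 lower. Acod1 was not tested there, since its level was under 1 FPKM in every PBS library and it passed the filter through its vesicle libraries alone. Acod1, whose enzyme makes itaconate from a citrate cycle intermediate, rose by 7.57 on the log2 scale (adjusted p = 1.45e-07 by limma). Mdh2, the mitochondrial malate dehydrogenase gene, rose by 0.54 (adjusted p = 0.00054) and Mdh1, its cytosolic counterpart, fell by 0.52 (adjusted p = 0.000607). The aspartate aminotransferase genes Got1 and Got2, whose enzymes also belong to the malate-aspartate shuttle, fell by 0.35 and 0.52. Got1 was not called after median-of-ratios scaling (-0.18, adjusted p = 0.166), without PBS replicate 3 (0.0509) or without both libraries of replicate 1 (0.055) or 3 (0.136). The same scaling gave -0.33 for Mdh1 and -0.34 for Got2. Cs and Idh1, for citrate synthase and cytosolic isocitrate dehydrogenase, had values of 0.35 and -0.80, with 0.54 for Cs after median-of-ratios scaling.

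Of the family members that carry other symbols, Ucp2, an uncoupling protein gene of immune cells, fell from 68.6 ± 6.18 to 39.8 ± 1.49 FPKM (SD, n = 3 per group, log2 fold change -0.77, adjusted p = 0.000349 by limma). With PBS its mean lay beside that of Slc25a5, at 67.1 ± 6.92 FPKM, and the pair did not differ beyond their spread. Mtch1 and Mtch2 were not called, at -0.08 and -0.06. Ucp1 and Ucp3 were under the filter.

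In the import route of the carriers, through Tomm70a and the Timm22 complex, 2 of 11 tested genes were higher, 3 lower and 6 not called, with a median of -0.06. Tomm40 was at 0.32 (adjusted p = 0.00996), not called once both replicate 3 libraries were removed (0.0813), and Tomm70a was not called at -0.03. The other higher gene was Timm13, at 0.23 (limma, adjusted p = 0.0429). Tomm20 (-0.22, adjusted p = 0.0107), Timm22 (-0.18, 0.0444) and Timm29 (-0.28, 0.0424) were lower. Call and direction held in 6 of 15 alternatives for Timm13, 12 of 15 for Tomm20, 2 of 14 for Timm22 and 4 of 15 for Timm29. After median-of-ratios scaling 4 genes of this list were higher and 0 lower, and without both replicate 3 libraries 0 were called in either direction. Of 13 tested genes for other routes across the membranes, 2 were higher, 2 lower and 9 not called. The higher count was 6 after that scaling and 0 without both replicate 1 libraries. Sfxn3, a sideroflexin gene, and Abcb10, whose protein is linked to haem synthesis, fell by 0.77 and 0.74. Vdac1, the main outer membrane channel gene, had means of 47.1 ± 3.63 and 50.0 ± 1.80 FPKM, with no call.

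In the haem and iron-sulfur list, 3 of 14 genes were higher, 3 lower and 8 not called. Alas1, for the first enzyme of haem synthesis, went from 4.96 ± 0.347 to 13.6 ± 0.868 FPKM (SD, n = 3 per group, log2 fold change 1.30, adjusted p = 2.32e-05 by limma). Alad, for the next enzyme, fell by 0.71 (adjusted p = 0.00104) and Lyrm4, for an iron-sulfur assembly factor, rose by 0.81 (adjusted p = 9.31e-05). With a replicate block, 6 genes of this list were lower in place of 3. Median-of-ratios scaling gave 5 higher. For the calcium uniporter, 2 of 7 genes were higher and 1 lower, with the channel gene Mcu at -0.43 and its inhibitory relative Mcub at 0.51 (adjusted p = 0.00206 and 0.000396). Mcu stood at -0.28 after median-of-ratios scaling. Among regulators of mitochondrial biogenesis, 2 of 8 were higher and 2 lower, and 0 were lower once both replicate 3 libraries were removed, or under median-of-ratios scaling. Esrra rose by 0.53, while Tfam, at -0.33, lost its call with median-of-ratios scaling (adjusted p = 0.0905), with quantile normalization (0.082) and without both libraries of replicate 3 (0.0828).

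**Figure D5:**
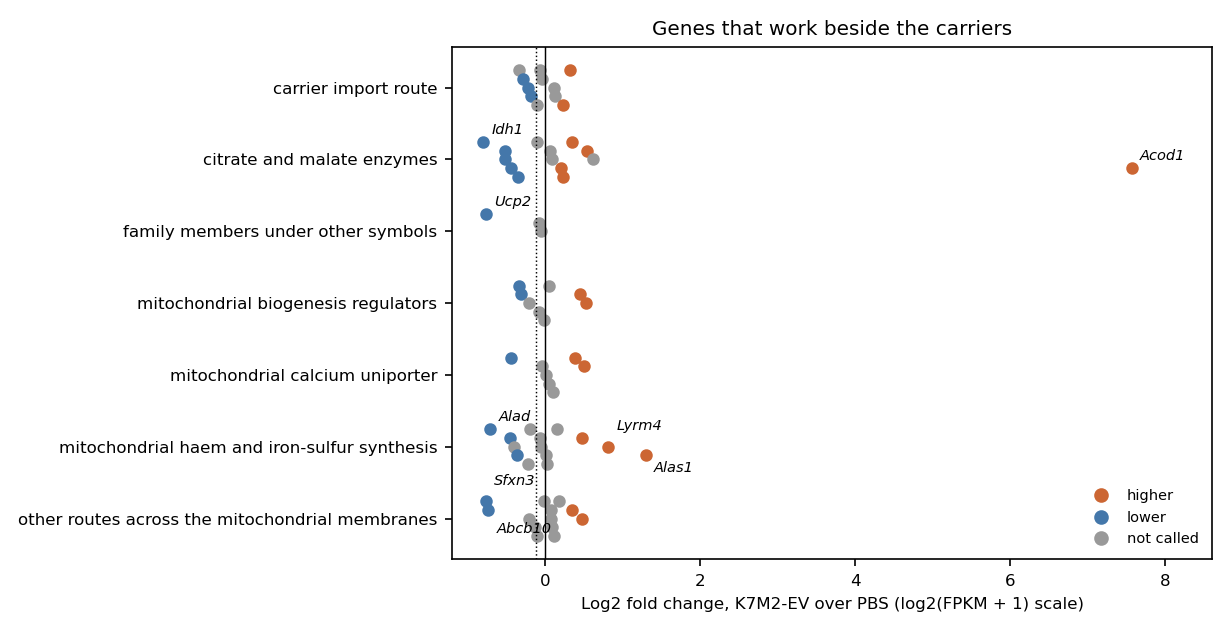
Log2 fold change (x axis, K7M2-EV over PBS on the log2(FPKM + 1) scale) of tested genes in 7 lists (y axis), each point a gene, with orange called higher, blue called lower and grey not called. The dotted line is the median of all genes tested (-0.12), and Acod1 lies apart from the rest at 7.57.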

How the data were processed

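The authors deposited 1 table of FPKM values per library, with 26883 rows of gene symbols. Per the submitters' processing notes, StringTie 1.3.4b, HISAT2 2.1.0, CASAVA 1.8 and edgeR were used with GRCm38, and no role is stated for any of them. No source used here gives the strand setting. The 1 row lacking a value was dropped, and of rows with a repeated symbol the one with the highest mean was kept, which dropped 47 rows and no carrier row. Group and replicate number came from the sample titles. Where nothing says that libraries came from separate animals, p-values measure the spread between these libraries.

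The test was limma 3.58.1 in R 4.3.3 (trend and robust settings) on log2(FPKM + 1). It covered the 13009 genes that reached 1 FPKM in 3 or more libraries, with Benjamini-Hochberg adjustment over them. Ratios used a pseudocount of 0.1. Positions, exon lengths and overlaps came from GENCODE M21 on GRCm38. FPKM times exon length gave whole reads within 0.1 for 72.3% to 73.4% of values up to 20 reads, where chance gives 20%, so that read numbers are approximate and no count test was run. At 1 FPKM a gene of 2 kb rests on 42.9 to 51.6 reads. A simulation used 12174 genes with at least 1 FPKM in all PBS libraries and an assumed spread between replicates. In it 67, 66 and 65 genes were changed 1.5-fold, 2-fold and 4-fold, both up and down. It held no shift of library scale and no replicate effect. There the fit recovered 64.2%, 95.5% and 98.5% of them, and 7.10% of calls were false. In the data 54.0% of genes were called, so these shares are not the error rates of the comparison.

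The members, substrate classes and lists were chosen with earlier results of these data known. Values in every library are given for members called with a change of at least 0.5, for the 6 with the highest mean FPKM and for the iron and ATP-Mg classes. Promoter sequences came from RefSeq on GRCm38.p6. Deviations from the group mean correlated across genes between libraries of the same number (0.317, 0.294 and 0.209). The numbers were therefore taken as a possible pairing of the samples, though no label states a shared animal or day. The main fit and the main exact test leave this pairing out, and a replicate block that uses it was an alternative. Other pseudocounts, filters, scalings and left-out libraries were also tried. No marker or related list was left out, and 5 carrier symbols of the class table were not analysed here. The values of 1 further carrier are not reported here, though it is included in the counts.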

Additional observations from a re-analysis of the deposited data

How the results depend on the processing

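Each tested carrier was refitted under up to 15 alternatives, and 10 of the 19 called carriers kept their direction and call in all those run for them: Slc25a10, Slc25a12, Slc25a13, Slc25a22, Slc25a24, Slc25a28, Slc25a30, Slc25a32, Slc25a33 and Slc25a45. Over the carriers 377 refitted values kept their direction and side of the threshold, 44 lost a call, 8 gained one and 22 turned direction. The count of carriers called higher went from 10 to 6 without both libraries of replicate 3. The count called lower went from 9 to 3 with a filter of 5 FPKM, under which 18 carriers were tested. It was 5 with median-of-ratios scaling, with quantile normalization and without both libraries of replicate 2, and 4 without both of replicate 1 or 3. Lower calls over all genes tested were 35.6% in the main fit, 23.2% with median-of-ratios scaling and 25.2% with quantile normalization. Shares over all genes were not computed for the other alternatives, so their counts are not a result about the carriers. Leaving out 1 library at a time gave 9 to 10 higher and 4 to 7 lower. A replicate block gave 11 carriers higher and 8 lower. It gave a call to Slc25a4 and took it from Slc25a14, and changed no other carrier's call. In the related lists 26 members were higher with median-of-ratios scaling or quantile normalization in place of 16. Higher calls over all genes tested were 29.3% and 24.1% in those settings, in place of 18.4%. Without both libraries of replicate 1 or 3, 10 members were higher, of 67 and 69 tested. Lower members numbered 11 with median-of-ratios scaling and 10 without both libraries of replicate 3, in place of 17. The causes of these differences were not tested, except that fewer libraries or genes entered some fits.

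Directions turned for the carriers that follow, of which Slc25a14 had been called. With median-of-ratios scaling, Slc25a20 was at 0.12, Slc25a3 at 0.087, Slc25a38 at 0.058, Slc25a39 at 0.0027, Slc25a44 at 0.048, Slc25a46 at 0.065 and Slc25a51 at 0.026. With quantile normalization, Slc25a14 was at 0.010, Slc25a20 at 0.13, Slc25a38 at 0.079 and Slc25a44 at 0.054. Leaving out 1 library, or both of 1 replicate number, gave -0.068 to 0.036 for Slc25a20, -0.027 to 0.065 for Slc25a36 and -0.33 to 0.090 for Slc25a51. The log2 ratio of Slc25a25 to Slc25a24 ranged from -0.063 to 0.16 with 1 library left out. The other 7 ratios kept their direction under every alternative tried, and each reached 0.25 in the exact test with the replicate block, the smallest p it allows. Of the 11 carriers under the filter, Slc25a23, Slc25a27 and Slc25a42 were called lower in the fit without it (adjusted p = 0.00025, 0.0134 and 0.0458). Slc25a18, Slc25a31 and Slc25a34 rest on at most 9.98 implied reads per library, and no difference was resolved for them at this depth.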
